A study of Bos taurus with 9 samples.

Results

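The genes of fatty acid oxidation and ketogenesis were examined in the liver of lactating Holstein cows, from the carriers that bring fatty acids into the cell to the enzymes that break them down to acetyl-CoA. The 37 genes were chosen by symbol for their known roles, all 37 were found among the 28786 genes of the count file, and 36 had enough reads to be tested. Liver biopsies were taken from 9 cows during treatment, with 3 cows and 3 libraries in each of 3 groups. Cows of the TN group were kept in thermoneutrality, cows of the HS group were kept under heat stress, and cows of the PF group were kept in thermoneutrality but pair-fed, so that they received only as much feed as the heat-stressed cows ate. The comparison of HS with TN cows holds heat and lower intake together. That of PF with TN cows holds lower intake without heat, and that of HS with PF cows holds heat at a matched intake. The average days in milk that the study gives also differed between the groups, so each comparison holds that difference too. The cows carried no genetic modification, all had been acclimated in thermoneutrality beforehand, and their age was not given in the sources used here.

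Fatty acids that reach the liver are bound inside the cell by *FABP1*, joined to coenzyme A by acyl-CoA synthetases and passed into mitochondria by the carnitine shuttle, whose gatekeeper is *CPT1A*. In the mitochondrial matrix, acyl-CoA dehydrogenases, hydratases, hydroxyacyl-CoA dehydrogenases and thiolases shorten the chain in repeated cycles, and electrons pass through the electron transfer flavoprotein to the respiratory chain, while peroxisomes shorten chains that are too long or branched. Acetyl-CoA that the liver does not burn can be joined into ketone bodies, and *PPARA* encodes the nuclear receptor that turns on many of these genes in fasting and in early lactation.

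Most of the 36 genes tested had their lowest mean level in the TN group (30 of 36) and their highest in the PF group (24 of 36), but none passed the edgeR test in any comparison. The same shares over all genes were not computed. One cow, TN replicate 1, had the lowest level of all 9 cows for 24 of the 36. Without that cow, 19 of the 36 were higher and 17 lower in HS than in TN cows. Each pair of groups was compared with edgeR (quasi-likelihood F test), and a gene was called where its FDR, the Benjamini-Hochberg adjusted p, was under 0.1 and its fold change was over 1.5. Levels are given as CPM (read counts scaled to a common library size, with TMM normalization over the 9 libraries). CPM is not divided by gene length, so levels are compared between cows and not between genes. Log2 fold changes are given with their standard error (SE) from the fit. In bulk tissue, fewer cells of a type and less RNA per cell cannot be told apart. The labels number the replicates and do not say how they differ, while the study describes separate cows. The p-values weigh a difference between groups against the spread between these cows, which is estimated with help from all genes tested.

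The 9 libraries held between 16874444 and 22557047 counts on genes, so that 3 counts, the most that a count of 0 allows, stood for 0.111 to 0.202 CPM. All 10 hepatocyte markers were present, whereas 4 of 5 skeletal muscle markers and 2 of 5 adipocyte markers had no more than 3 counts in any library. TN replicate 1 stood apart from the other cows. Its 10 hepatocyte markers summed to 18208 CPM, against 68075 to 81540 CPM in the other TN cows, 89908 to 120440 CPM in PF cows and 60974 to 129810 CPM in HS cows, and it had the lowest level of all 9 cows for 6 of the 10. *ALB*, the gene of serum albumin, made up a large part of these sums. It was at 8603 CPM in that library, and the next lowest cow had 33979 CPM. Not all markers were low there. *APOB* and *HNF4A* were at 956 CPM and 379 CPM, within the 591 to 1269 CPM and 329 to 521 CPM of the other cows. The summed level of 8 Kupffer cell and macrophage markers was 1211 CPM in TN replicate 1, within the 1023 to 3117 CPM of the other cows. Reads on 13 mitochondrially encoded genes made up 13.6% to 22.2% of counts in TN cows, 6.90% to 7.79% in PF cows and 3.84% to 5.68% in HS cows, without overlap between groups.

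TN replicate 1 was also the lowest cow for many fatty acid oxidation genes. Within the TN group it had the lowest level for 30 of the 36 genes, and among all 9 cows it had the lowest for 24. In the HS group, replicate 3 had the highest level for 28 genes and replicate 1 the lowest for 27. These ranks are of levels after TMM scaling. It raised the library sizes of TN replicate 1 from 16874444 to 22778991 and of HS replicate 1 from 22557047 to 26935507. That of HS replicate 3 was lowered from 17115076 to 14836332. How far the scaling contributed to these ranks was not tested. The median level of the 36 genes, on the scale log2(CPM + 0.5), was 6.69, 7.60 and 7.60 in TN replicates 1 to 3, 7.78, 7.83 and 8.09 in PF replicates 1 to 3, and 7.63, 7.84 and 8.10 in HS replicates 1 to 3. All PF and HS cows lay above all TN cows by this median, with HS replicate 1 nearest to them. By the summed level of the 37 genes, HS and TN cows overlapped. The sums were 6045, 12659 and 12206 CPM in TN replicates 1 to 3 and 8018, 10048 and 13966 CPM in HS replicates. PF replicates had 13156, 14916 and 13242 CPM, above all TN cows. The spread between cows of a group, as the median coefficient of variation over the 36 genes, was 39.1% for the TN group, 15.9% for the PF group and 31.6% for the HS group. How far the marker levels of these libraries contributed to the differences of the TN group was not tested.

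**Figure D1:**
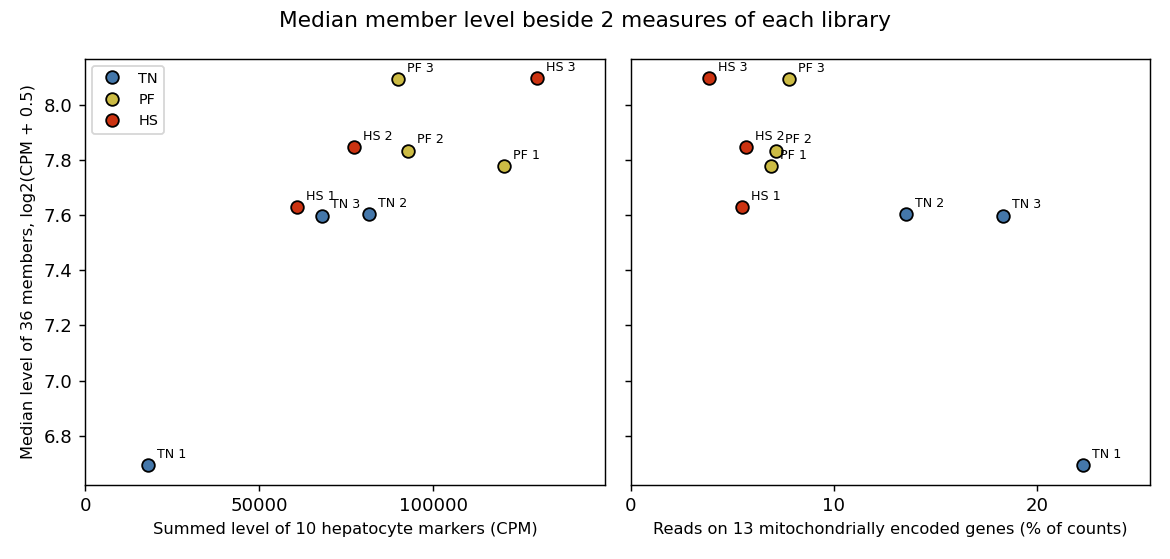
Median level of 36 fatty acid oxidation genes in each cow, as log2(CPM + 0.5), against the summed CPM of 10 hepatocyte markers (left) and the percentage of counts on 13 mitochondrially encoded genes (right), with 1 point per cow coloured by group. TN replicate 1, at a median of 6.69, lies apart from the other 8 cows, which sit between 7.60 and 8.10.

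**Figure D2:**
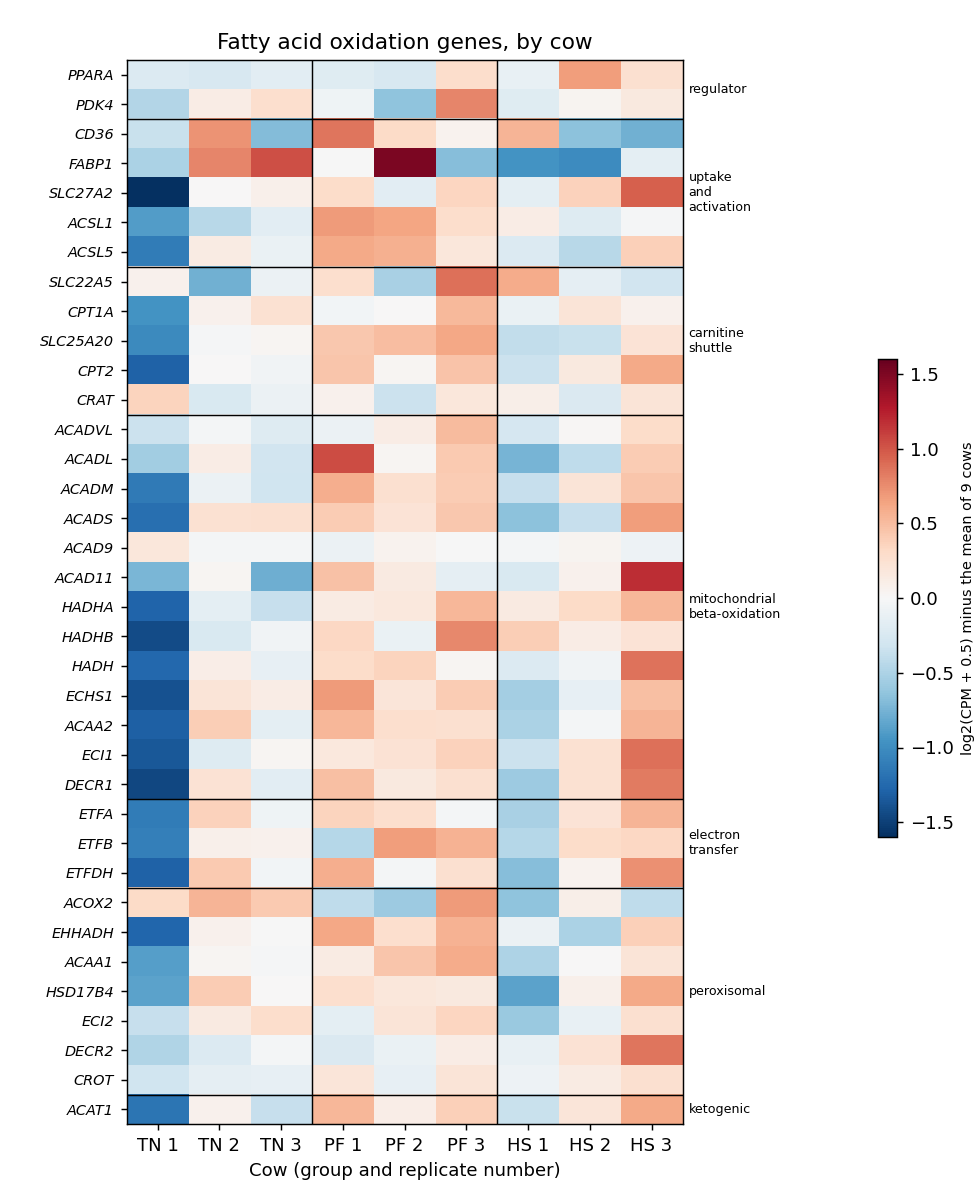
Heatmap of 36 fatty acid oxidation genes (rows, by role) in 9 cows (columns, by group), as log2(CPM + 0.5) minus the mean of the 9 cows. The column of TN replicate 1 is blue in most rows, the PF columns are mostly red, and in the HS group the column of replicate 3 is redder than that of replicate 1.

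Between HS and TN cows, edgeR called 0 of the 36 genes, where 0.0892% of the 14582 genes tested were called. The log2 fold change was above 0 for 29 of the 36 genes, against 49.3% of all genes tested, and its median was 0.26 (range -1.24 to 0.90) against -0.01 for all genes. An unadjusted p under 0.05 was reached by 2 genes that were higher in HS cows, *HADHA* and *ACAD11*, and by 1 that was lower, *FABP1*. Among all genes tested, 4.13% reached it with a higher and 5.23% with a lower level. All HS cows lay above all TN cows for 4 genes, *PPARA*, *HADHA*, *HADHB* and *CROT*, and below them for *ACOX2*, which were named after their values were seen. Of all genes tested, 8.65% lay without overlap above and 7.48% below, so the members' counts were near the background. DESeq2, the tool used in the study, called 1 of the 37 genes, *FABP1*, and 1.32% of the 20466 genes it tested.

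Between PF and TN cows, most of the genes had a higher mean in PF cows. Their log2 fold change was above 0 for 32 of 36 genes, against 48.8% of all genes tested. The median was 0.55 (range -0.42 to 1.01), against -0.01 for all genes. The fold change was over 1.5 for 15 genes, all of them higher in PF cows. Of the 14580 genes tested, 1360 were over it with a higher and 1960 with a lower level. None of the 36 was called by edgeR, which called 0% of 14580 genes in this comparison. An unadjusted p under 0.05 was reached by 5 genes, *ACSL1*, *ACADM*, *SLC25A20*, *HADHA* and *ACADL*, all higher in PF cows, where the share of all genes was 2.99% higher and 3.89% lower. All PF cows lay above all TN cows for 11 of the 36 genes and below them for 0, where the shares of all genes were 6.92% and 6.34%. DESeq2 called 1 member, *ACSL1*, and 0.449% of all genes it tested.

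At matched intake, the direction was mostly the other way. Between HS and PF cows, 28 of the 36 genes had a log2 fold change below 0 and 8 above it, where 50.9% of the 14510 genes tested were above 0. The median was -0.16 (range -1.23 to 0.44), against 0.01 for all genes. Without HS replicate 1 the split was 21 below and 15 above with a median of -0.06, and without PF replicate 3 it was 23 and 13 with a median of -0.10. edgeR called 0 members and 0.0276% of all genes, and DESeq2 called 0 members and 0.596% of all genes. An unadjusted p under 0.05 was reached by 3 genes, *SLC25A20*, *FABP1* and *ACSL1*, all lower in HS cows, and by none that was higher. The shares of all genes were 2.25% lower and 3.07% higher. HS cows lay below all PF cows for *ACSL1* and *SLC25A20* and above them for 0 genes, where 4.49% and 6.06% of all genes did.

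In the test of the 3 groups together on all 9 libraries, 0 members had an FDR under 0.1, where 0.0464% of 15073 genes had one. An unadjusted p under 0.05 was reached by *ACSL1*, *HADHA* and *SLC25A20*, 3 of the 36, against 7.86% of all genes. The lowest FDR of a member was 0.465, for *ACSL1* (edgeR). The likelihood ratio test of DESeq2 gave *ACSL1* an FDR of 0.0322 and called no other member, where it called 1.39% of the 20978 genes it tested.

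**Figure D3:**
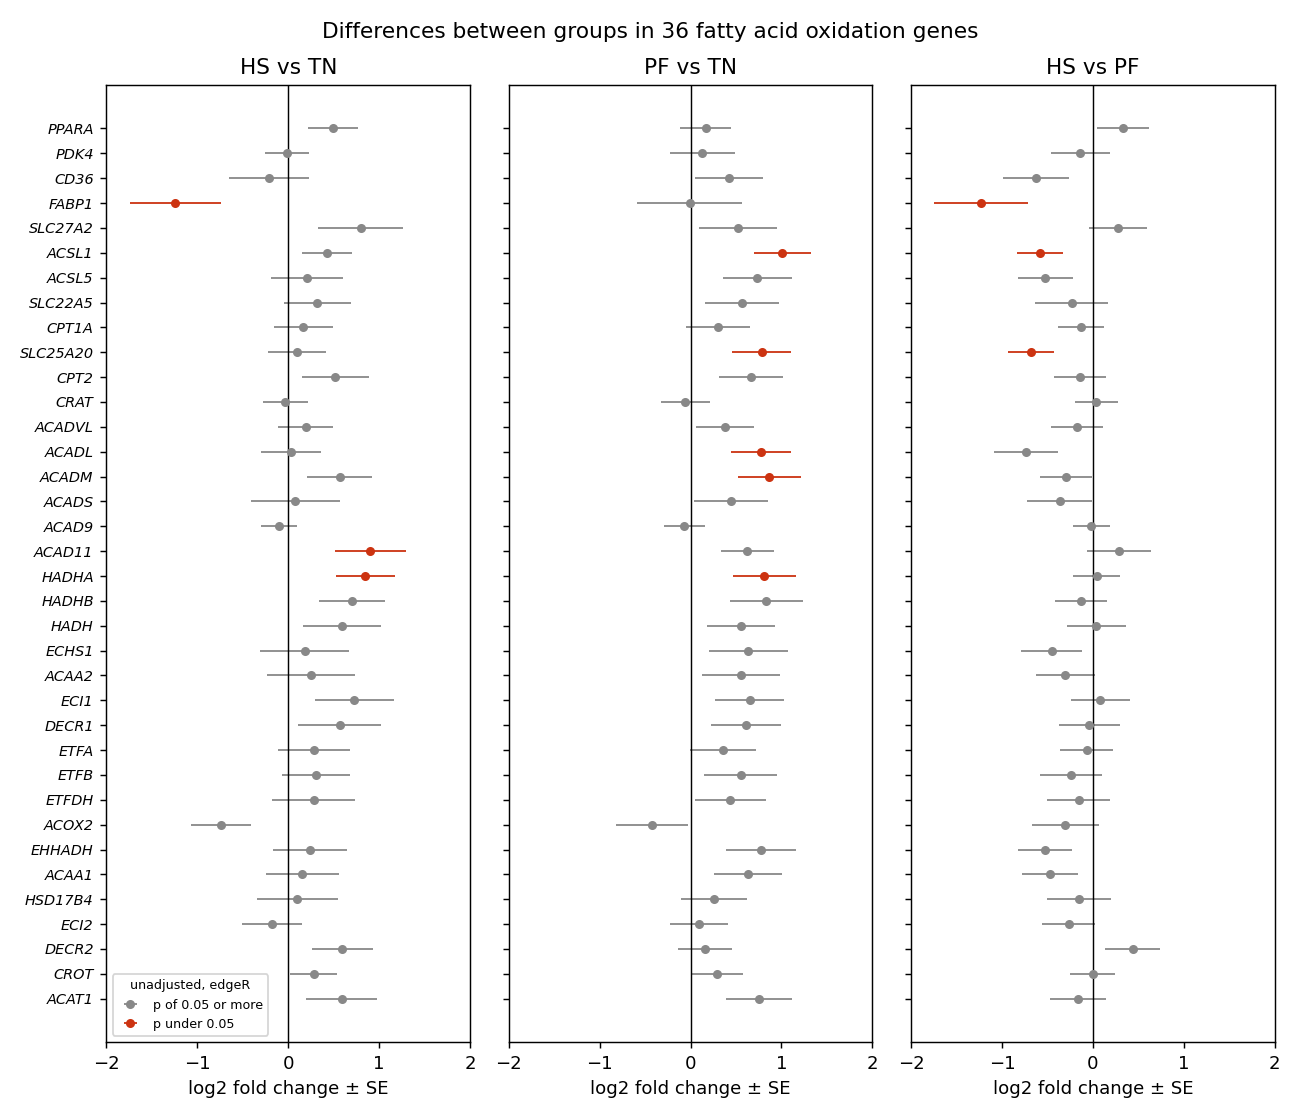
Log2 fold changes ± SE (edgeR) of 36 fatty acid oxidation genes between HS and TN, PF and TN, and HS and PF cows, with 3 cows in each group and genes with an unadjusted p under 0.05 in red. In the middle panel 32 genes lie right of 0, and in the right panel 28 lie left of it.

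Of the 2 regulators, *PPARA* was at 108 CPM, 105 CPM and 111 CPM in TN replicates 1 to 3, at 110 CPM, 105 CPM and 153 CPM in PF replicates and at 116 CPM, 199 CPM and 149 CPM in HS replicates. TN cows were close together, and each HS cow lay above them. The group means were 108 ± 3.20, 122 ± 26.5 and 155 ± 42.0 CPM (SD, n = 3). HS and TN cows differed by a log2 fold change of 0.49 (SE 0.27), with an FDR of 0.581 (edgeR), and without HS replicate 2 it was 0.27. Between PF and TN cows it was 0.17 (SE 0.28), and between HS and PF cows 0.33 (SE 0.28). *PDK4* encodes the kinase that shuts off pyruvate dehydrogenase when fat is the fuel, and PPARA is known to induce it. Its level was 34.0 CPM, 51.3 CPM and 56.9 CPM in TN replicates, 45.0 CPM, 30.2 CPM and 81.2 CPM in PF replicates, and 41.4 CPM, 48.6 CPM and 52.9 CPM in HS replicates. The 3 groups overlapped, with PF cows spanning all the others. The log2 fold change of *PDK4* was -0.02 (SE 0.24) for HS against TN, 0.13 (SE 0.36) for PF against TN and -0.14 (SE 0.33) for HS against PF cows.

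Among the genes of uptake and activation, *FABP1* showed the largest log2 fold change in size of all 36 members in the HS against TN comparison. It was at 1030 CPM, 2508 CPM and 2978 CPM in TN replicates 1 to 3, at 1454 CPM, 4155 CPM and 907 CPM in PF replicates and at 750 CPM, 728 CPM and 1308 CPM in HS replicates. HS replicate 3 lay above TN replicate 1, so these groups overlapped, and the coefficient of variation of PF cows, 80.1%, was the highest of the 36 genes in that group. Its value between HS and TN cows was -1.24 (SE 0.50), with an unadjusted p of 0.0329 and an FDR of 0.4995 in edgeR and an FDR of 0.0922 in DESeq2. Without TN replicate 1 it was -1.57. Between HS and PF cows it was -1.23 (SE 0.52, FDR 0.908 in edgeR), and without PF replicate 2 it was -0.36. PF and TN cows both had a mean of 2172 CPM and a log2 fold change of -0.01 (SE 0.58).

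*ACSL1* encodes a long-chain acyl-CoA synthetase of the liver, and its levels were highest in PF cows. TN replicates 1 to 3 were at 98.3 CPM, 135 CPM and 162 CPM, PF replicates at 294 CPM, 283 CPM and 221 CPM, and HS replicates at 198 CPM, 159 CPM and 180 CPM. Each PF cow lay above each cow of the other groups, and HS replicate 2 lay just below TN replicate 3. PF cows exceeded TN cows by a log2 fold change of 1.01 (SE 0.31), a 2.01-fold difference with an unadjusted p of 0.00798, an FDR of 0.693 in edgeR and an FDR of 0.0673 in DESeq2. Without TN replicate 1 it was 0.85. Between HS and PF cows, a comparison that shares the PF cows, it was -0.58 (SE 0.25, FDR 0.908 in edgeR), and between HS and TN cows 0.42 (SE 0.27, FDR 0.623).

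The other 3 genes of this group did not reach an unadjusted p under 0.05. *ACSL5*, a second acyl-CoA synthetase, was at 192 to 454 CPM in TN, 472 to 635 CPM in PF and 306 to 543 CPM in HS cows, with each PF cow above each TN cow. *SLC27A2*, a very-long-chain acyl-CoA synthetase and fatty acid transporter, had 48.2 CPM in TN replicate 1 and 162 CPM and 171 CPM in the other TN cows, 144 to 204 CPM in PF cows and 144 to 315 CPM in HS cows. The scavenger receptor *CD36* varied within groups, at 22.9 to 61.9 CPM in TN, 38.9 to 68.0 CPM in PF and 21.6 to 54.7 CPM in HS cows.

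In the carnitine shuttle, *SLC25A20* differed most between groups. This gene encodes the carrier that exchanges acylcarnitine for free carnitine across the inner mitochondrial membrane. Its level was 45.6 CPM, 91.7 CPM and 94.9 CPM in TN replicates 1 to 3, 126 CPM, 131 CPM and 144 CPM in PF replicates and 71.0 CPM, 72.3 CPM and 108 CPM in HS replicates. PF cows lay above all others, while HS and TN cows overlapped. PF and TN cows differed by 0.78 on the log2 scale (SE 0.32, unadjusted p 0.0323, FDR 0.708 in edgeR), or by 0.52 without TN replicate 1. The value was -0.68 (SE 0.25, unadjusted p 0.0203, FDR 0.786 in edgeR) between HS and PF cows and 0.10 (SE 0.32) between HS and TN cows. In the RefSeq gene set of ARS-UCD2.0, *SLC25A20* overlaps *LOC132343541*, and reads of such partners may not be told apart.

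*CPT1A*, which makes acylcarnitine at the outer membrane, varied little between groups. TN replicates were at 69.0 CPM, 141 CPM and 159 CPM, PF replicates at 129 CPM, 135 CPM and 192 CPM, and HS replicates at 124 CPM, 154 CPM and 140 CPM. All HS cows lay within the range of the TN cows. The log2 fold changes were 0.17 (SE 0.32, FDR 0.873) for HS against TN, 0.30 (SE 0.35, FDR 0.825) for PF against TN and -0.13 (SE 0.25, FDR 0.9998) for HS against PF cows (edgeR), and the first was -0.11 without TN replicate 1. *CPT2*, which frees acyl-CoA again in the matrix, was at 38.9 to 96.0 CPM in TN, 97.8 to 131 CPM in PF and 75.1 to 146 CPM in HS cows, so that PF cows lay above all TN cows. The carnitine importer *SLC22A5* was at 3.96 to 13.5 CPM over the 9 cows, and carnitine acetyltransferase, *CRAT*, had nearly equal group means of 47.9 ± 10.8, 46.5 ± 8.52 and 48.1 ± 7.22 CPM in TN, PF and HS cows (SD, n = 3). *CRAT* overlaps *PTPA* in that gene set.

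**Figure D4:**
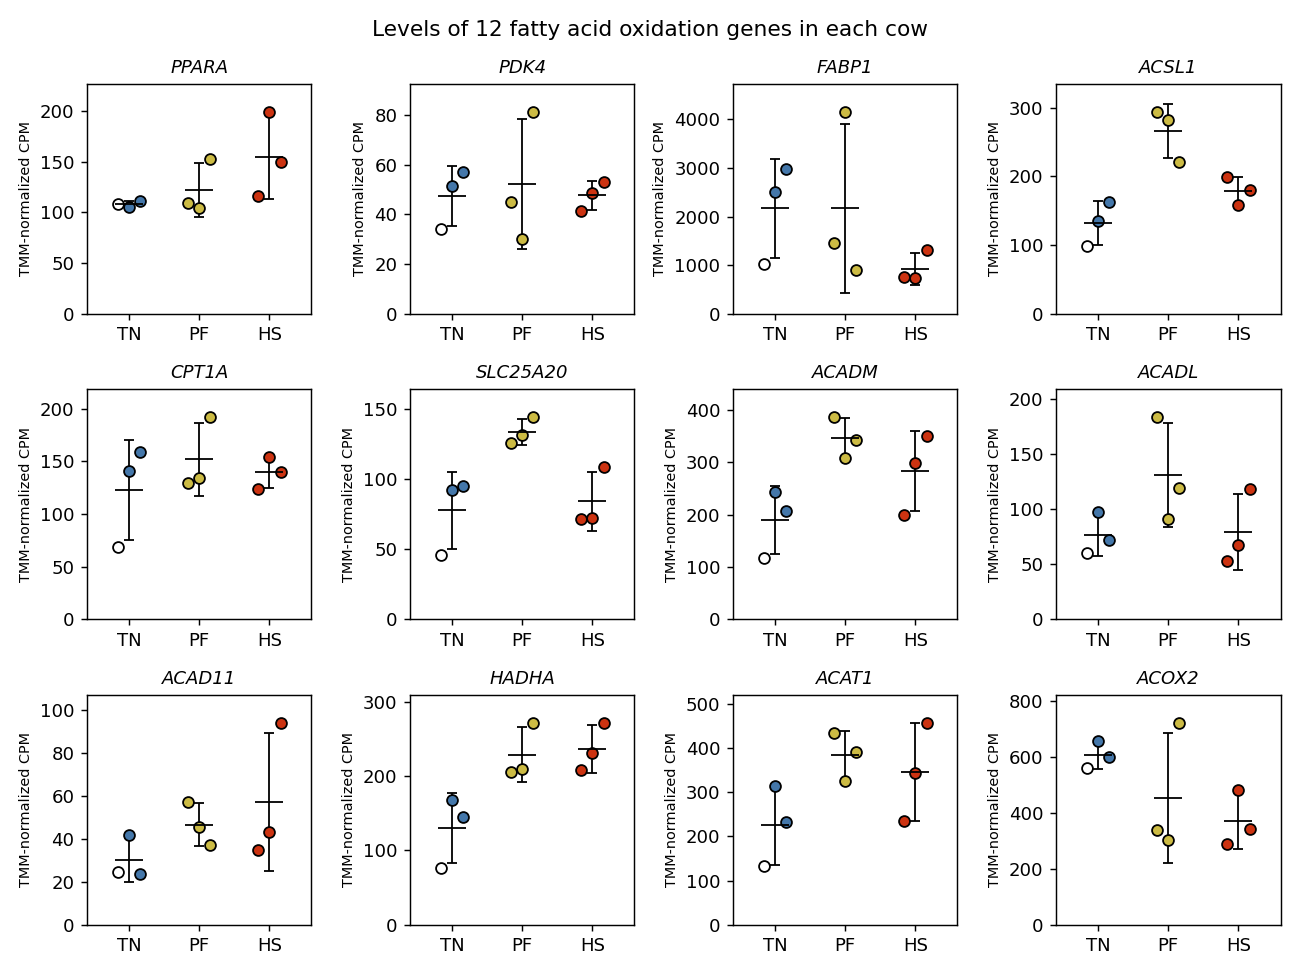
Levels of 12 fatty acid oxidation genes in TMM-normalized CPM in each TN, PF and HS cow (points, with TN replicate 1 as an open circle), with the group mean (dash) and SD (bars, n = 3). The *ACSL1* and *SLC25A20* points of PF cows lie above all others, *HADHA* points of PF and HS cows lie above all TN points, and *PDK4* and *CPT1A* overlap between groups.

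The 13 tested genes of mitochondrial beta-oxidation mostly had higher means in HS and PF than in TN cows. Their log2 fold changes were above 0 for 12 of 13 against TN cows in either comparison, which share the TN cows, with medians of 0.56 for HS and 0.63 for PF. Without TN replicate 1 the values were above 0 for 9 of 13 (median 0.23) in HS and for 13 of 13 (median 0.32) in PF cows. Against PF cows, 9 of 13 were lower in HS cows, with a median of -0.13. The median level of the 13 genes, as log2(CPM + 0.5), was 6.83, 7.93 and 7.82 in TN replicates 1 to 3, 8.35, 8.27 and 8.43 in PF replicates and 7.84, 8.12 and 8.46 in HS replicates. All PF cows lay above the TN cows by this value, and HS replicate 1 lay between TN replicates 3 and 2.

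*HADHA* encodes the alpha subunit of the trifunctional protein, which carries out the hydratase and dehydrogenase steps on long chains. It was at 76.7 CPM, 168 CPM and 145 CPM in TN replicates, 205 CPM, 210 CPM and 271 CPM in PF replicates and 208 CPM, 231 CPM and 271 CPM in HS replicates. No HS or PF cow overlapped with a TN cow, and HS and PF cows covered nearly the same range. *HADHA* differed by a log2 fold change of 0.85 (SE 0.33, unadjusted p 0.0282, FDR 0.487 in edgeR) between HS and TN cows and 0.81 (SE 0.34, unadjusted p 0.0375, FDR 0.708 in edgeR) between PF and TN cows. Without TN replicate 1 these were 0.59 and 0.55. Between HS and PF cows it was 0.04 (SE 0.26). *HADHB*, the thiolase subunit of the same protein, was at 87.4 CPM, 199 CPM and 226 CPM in TN, 296 CPM, 219 CPM and 401 CPM in PF and 310 CPM, 256 CPM and 275 CPM in HS replicates. Its HS cows lay above all TN cows, whereas PF replicate 2 lay just below TN replicate 3, and its log2 fold change was 0.70 (SE 0.36, FDR 0.560) for HS and 0.83 (SE 0.40, FDR 0.709) for PF against TN cows, or 0.39 and 0.53 without TN replicate 1.

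The acyl-CoA dehydrogenases take the first step of each cycle and differ in chain length. *ACADM*, for medium chains, was at 117 CPM, 243 CPM and 208 CPM in TN replicates, 386 CPM, 308 CPM and 343 CPM in PF replicates and 200 CPM, 299 CPM and 351 CPM in HS replicates. PF cows lay above all TN cows, by 0.87 on the log2 scale (SE 0.34, unadjusted p 0.0280, FDR 0.708 in edgeR), a value that was 0.63 without TN replicate 1. HS cows overlapped both groups, at 0.56 (SE 0.35) against TN and -0.30 (SE 0.29) against PF cows. *ACADL*, for long chains, was at 60.2 CPM, 96.8 CPM and 71.5 CPM in TN, 183 CPM, 90.6 CPM and 119 CPM in PF and 52.9 CPM, 66.8 CPM and 118 CPM in HS replicates. PF replicate 2 lay below TN replicate 2. For PF against TN cows the log2 fold change was 0.78 (SE 0.33, unadjusted p 0.0398, FDR 0.708 in edgeR), and 0.45 without PF replicate 1, and for HS against PF cows it was -0.73 (SE 0.35, FDR 0.949).

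*ACAD11* had the largest positive log2 fold change of the members between HS and TN cows. The gene encodes a dehydrogenase active on long chains, and its level was 24.5 CPM, 42.0 CPM and 23.7 CPM in TN replicates, 57.2 CPM, 45.4 CPM and 37.3 CPM in PF replicates and 34.7 CPM, 43.1 CPM and 94.0 CPM in HS replicates. HS replicate 3 was far above the other cows. That comparison gave 0.90 (SE 0.39, unadjusted p 0.0434, FDR 0.518 in edgeR), and without HS replicate 3 it was 0.35. *ACAD11* overlaps *ACKR4* in the RefSeq annotation.

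Of the remaining mitochondrial genes, the short-chain dehydrogenase *ACADS* was at 213 CPM in TN replicate 1 and at 583 CPM and 589 CPM in the other TN cows, and its PF and HS cows ranged from 313 to 783 CPM. *ACADVL*, for very long chains, had 309 to 383 CPM in TN, 368 to 555 CPM in PF and 326 to 478 CPM in HS cows. *ACAD9*, which also helps to assemble respiratory complex I, was the most even member, at 26.8 to 32.6 CPM in all 9 cows. The hydratase *ECHS1*, the dehydrogenase *HADH*, the thiolase *ACAA2* and the auxiliary enzymes *ECI1* and *DECR1*, which handle double bonds, each had their lowest value in TN replicate 1. For *ECHS1* that value was 379 CPM, against 685 to 1603 CPM in the other 8 cows, and for *DECR1* it was 37.8 CPM against 69.4 to 185 CPM. Only *ECI1* among these 5 had all PF cows above all TN cows, at 327 to 376 CPM against 113 to 298 CPM.

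The electron transfer genes *ETFA*, *ETFB* and *ETFDH* pass electrons from the dehydrogenases to ubiquinone. None separated the groups, and each had its lowest level in TN replicate 1, at 46.4 CPM, 86.4 CPM and 32.9 CPM. Their log2 fold changes were 0.28 to 0.30 for HS against TN, 0.36 to 0.55 for PF against TN and -0.24 to -0.07 for HS against PF cows, with SE of 0.29 to 0.45. Without TN replicate 1 they were -0.06 to 0.02 for HS and 0.05 to 0.27 for PF against TN cows.

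The 7 peroxisomal genes were less uniform. *EHHADH*, the bifunctional enzyme, and the thiolase *ACAA1* had all PF cows above all TN cows, at 429 to 547 CPM against 147 to 372 CPM and at 1266 to 1737 CPM against 624 to 1179 CPM. Their log2 fold changes between PF and TN cows were 0.77 (SE 0.39, FDR 0.709) and 0.63 (SE 0.37, FDR 0.711), or 0.46 and 0.40 without TN replicate 1. *CROT*, which moves shortened chains out on carnitine, was at 169 to 193 CPM in TN, 193 to 244 CPM in PF and 200 to 251 CPM in HS cows. Its groups differed by under 1.5-fold, with log2 fold changes of 0.28 (SE 0.26) for HS and 0.29 (SE 0.29) for PF against TN cows. *ACOX2*, the oxidase of branched chains and bile acid intermediates, went the other way. It was at 560 CPM, 656 CPM and 601 CPM in TN, 339 CPM, 303 CPM and 722 CPM in PF and 289 CPM, 481 CPM and 342 CPM in HS replicates. All HS cows lay below all TN cows, TN replicate 1 included, while PF replicate 3 was the highest of the 9. HS and TN cows differed by -0.74 on the log2 scale (SE 0.33, unadjusted p 0.0517, FDR 0.522 in edgeR), and by -0.77 without TN replicate 1.

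*DECR2*, the peroxisomal dienoyl-CoA reductase, was at 181 to 248 CPM in TN, 216 to 275 CPM in PF and 233 to 460 CPM in HS cows, with HS replicate 3 the highest. *HSD17B4*, the second bifunctional enzyme, and the isomerase *ECI2* overlapped between all groups, at 196 to 542 CPM and 164 to 313 CPM over the 9 cows, and both have an overlapping gene in the annotation (*LOC100295797* and *C23H6orf201*).

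Of the 2 genes kept for ketogenesis, *ACAT1*, whose thiolase joins acetyl-CoA into acetoacetyl-CoA, was at 133 CPM, 315 CPM and 233 CPM in TN replicates, 435 CPM, 325 CPM and 392 CPM in PF replicates and 235 CPM, 344 CPM and 458 CPM in HS replicates. PF cows lay above TN cows, and HS cows overlapped both. For *ACAT1* the log2 fold change was 0.76 (SE 0.37, FDR 0.709) for PF against TN, 0.59 (SE 0.39, FDR 0.626) for HS against TN and -0.16 (SE 0.30, FDR 0.9998) for HS against PF cows (edgeR). The first 2 were 0.49 and 0.33 without TN replicate 1. *BDH1* encodes the mitochondrial dehydrogenase that turns acetoacetate into 3-hydroxybutyrate, the main circulating ketone body. It had 2 counts in TN replicate 3 and 0 counts in the other 8 cows, which allows up to 0.111 to 0.202 CPM per library. No fold change can be given, and at this depth the gene was not detectable above the floor in any group. *BDH1* also overlaps *LOC132346095* in the RefSeq gene set of ARS-UCD2.0, and reads of such partners may not be told apart. Whether this lowered its counts was not tested.

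Leaving out TN replicate 1 removed much of the difference between HS and TN cows. Without it, the log2 fold change was above 0 for 19 and below 0 for 17 of the 36 genes, and the median was 0.01 in place of 0.26. Values were lower for 32 of the 36 genes, and 12 went from above to below 0. That cow had the lowest level of the TN group for 30 of the 36, so a fall of most values follows from leaving it out. Between PF and TN cows, 31 of 36 stayed above 0 without that cow, and the median was 0.27 in place of 0.55. The genes over 1.5-fold numbered 4 in place of 15, and those with an unadjusted p under 0.05 numbered 2 in place of 5. Of all genes tested, 4.35% in place of 6.88% reached such a p. The share over 1.5-fold without that cow was not computed. All PF cows lay above both remaining TN cows for 11 genes and below them for 0, where 9.52% and 10.3% of all genes did. All HS cows lay above them for 4 genes and below them for 2, where 11.7% and 11.5% of all genes did. Other cows moved the values too. Between HS and PF cows the median ran from -0.38 without HS replicate 3 to -0.06 without HS replicate 1. Without HS replicate 3, the median was 0.04 for HS against TN cows, and in the comparison with PF cows 7 genes in place of 3 were lower with an unadjusted p under 0.05. Of all genes tested, 5.34% in place of 5.32% had such a p in either direction. Without HS replicate 2 the number of members was 0, and the share of all genes was 4.11%. For HS against TN that number was 0 without TN replicate 3 and 1 without HS replicate 3, in place of 3. The shares of all genes were 7.34% and 5.83%, in place of 9.36%. For PF against TN the number was 10 without TN replicate 2, 3 without TN replicate 3 and 1 without PF replicate 1, in place of 5. There the shares of all genes were 9.96%, 5.25% and 4.75%, in place of 6.88%. With the 13 mitochondrially encoded genes left out of the library sizes, the medians were 0.26, 0.55 and -0.16 for HS against TN, PF against TN and HS against PF cows, and the numbers of genes with an unadjusted p under 0.05 were the same as with them.

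**Figure D5:**
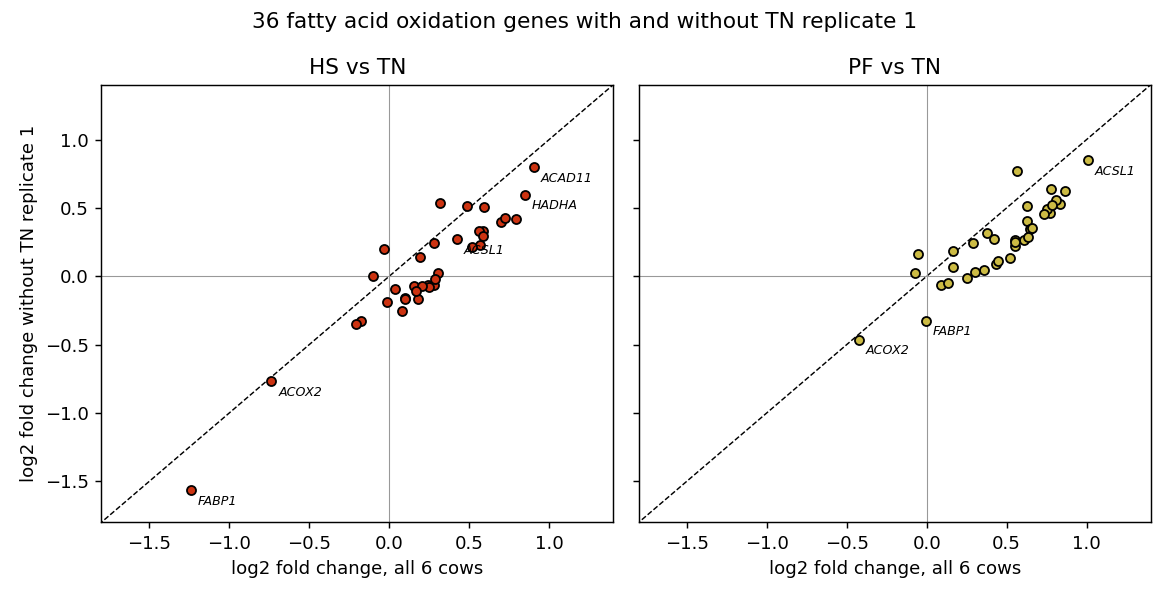
Log2 fold changes of 36 fatty acid oxidation genes with all 6 cows (x axis) and without TN replicate 1 (y axis), for HS against TN (left) and PF against TN (right), with the dashed line marking equal values. Without that cow the median moves from 0.26 to 0.01 in the left panel and from 0.55 to 0.27 in the right panel, and *FABP1* and *ACOX2* stay below 0 in both.

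A further 74 genes of the pathway were listed, covering other enzymes of uptake and activation, of mitochondria and of peroxisomes, malonyl-CoA, carnitine synthesis, omega-oxidation, ketone body transport and use, and the control and targets of PPARA, and 72 of them were in the file. Of these, 68 were tested between HS and TN cows, 69 between HS and PF cows and 68 between PF and TN cows, and edgeR called 0 in each. Unadjusted p was under 0.05 for 5 higher and 3 lower genes in HS against TN, for 3 higher and 8 lower genes in HS against PF, and for 8 higher and 4 lower genes in PF against TN cows. The shares of all genes tested were 4.13% and 5.23%, 3.07% and 2.25%, and 2.99% and 3.89%, and edgeR called 0.0892%, 0.0276% and 0% of all genes. The genes counted first were *CREB3L3*, *ACADSB*, *CPT1B*, *PEX11A* and *PEX5* (higher) and *ACACA*, *SLC16A7* and *ACAD8* (lower), those higher in HS than in PF cows were *ACACB*, *ACOX3* and *ACADSB*, and those lower were *ACAD8*, *ACOT8*, *FGF21*, *ACSL6*, *VNN1*, *SLC16A7*, *CYP4A11* and *NADK2*. Those beyond the naming rule were named after their values were seen.

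*ACACA* was called by DESeq2 in both comparisons with TN cows. It encodes the acetyl-CoA carboxylase that makes malonyl-CoA, the building block of fatty acid synthesis and an inhibitor of CPT1. Its level was 182 CPM, 40.3 CPM and 184 CPM in TN replicates, 35.3 CPM, 36.7 CPM and 15.1 CPM in PF replicates and 32.3 CPM, 25.1 CPM and 38.4 CPM in HS replicates. TN replicate 2 lay just above the PF and HS cows, and the other TN cows were far above them. Against TN cows the log2 fold change was -2.12 (SE 0.51, FDR 0.290 in edgeR and 0.00088 in DESeq2) for HS and -2.24 (SE 0.54, FDR 0.577 in edgeR and 0.00217 in DESeq2) for PF cows. HS and PF cows did not separate, at 0.13 (SE 0.33).

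*CREB3L3*, a liver transcription factor that acts with PPARA, was at 41.0 CPM, 51.5 CPM and 52.2 CPM in TN, 47.5 CPM, 50.6 CPM and 145 CPM in PF and 76.9 CPM, 117 CPM and 91.9 CPM in HS replicates. HS cows lay above all TN cows, by 0.96 on the log2 scale (SE 0.24, FDR 0.322 in edgeR and 0.0345 in DESeq2), and PF replicate 3 was above them all. *CPT1B*, the muscle form of the gatekeeper, was at 3.22 to 5.07 CPM in TN, 3.47 to 20.7 CPM in PF and 6.13 to 19.3 CPM in HS cows, and the log2 fold change was 1.47 (SE 0.41, FDR 0.390 in edgeR and 0.0568 in DESeq2) for HS against TN cows. Of 5 skeletal muscle markers, 4 had no more than 3 counts in any library, and the other was at 0.47 CPM in PF replicate 1 and 0.234 CPM in HS replicate 2. Whether muscle cells contributed to the level of *CPT1B* was not tested. *ACADSB*, which acts on branched short chains, was at 6.33 to 8.36 CPM in TN, 3.84 to 11.5 CPM in PF and 11.6 to 16.1 CPM in HS cows, and the log2 fold change was 0.98 (SE 0.25, FDR 0.325 in edgeR) against TN cows.

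At matched intake, *ACAD8* and *ACOT8* were lower in each HS cow than in each PF cow. *ACAD8*, which acts in valine breakdown, was at 426 CPM, 232 CPM and 344 CPM in PF and 155 CPM, 174 CPM and 188 CPM in HS replicates, and the log2 fold change was -0.96 (SE 0.29, FDR 0.625 in edgeR and 0.0691 in DESeq2). The peroxisomal thioesterase *ACOT8* was at 45.0 to 56.1 CPM in PF and 21.0 to 36.6 CPM in HS cows (-0.82, SE 0.25, FDR 0.625 in edgeR). *FGF21*, the hormone that the fasting liver releases under PPARA, was at 1.41 CPM, 28.6 CPM and 10.3 CPM in PF replicates, at 0.965 CPM, 2.58 CPM and 0 CPM in HS replicates and at 0 CPM, 0.186 CPM and 3.22 CPM in TN replicates. PF replicates 2 and 3 were above all others, and the PF and HS groups overlapped through PF replicate 1. For *FGF21* the log2 fold change was -3.49 (SE 1.06, unadjusted p 0.00709, FDR 0.625 in edgeR) for HS against PF cows.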

How the data were processed

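Poly(A) RNA from 9 liver biopsies was sequenced in paired-end mode by the authors. The deposited table holds raw read counts per gene, which the authors made with fastp 0.23.2, STAR 2.7.9a and featureCounts 2.0.3 on ARS-UCD1.2 (annotation release, strand and multi-mapping settings not given in the sources used here). All 9 columns were matched to cows by their labels. Libraries held 16874444 to 22557047 counts, and limits from a count of 0 (3 counts) cover counting error only.

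In R 4.3.3, the 6 libraries of a pair were fitted with edgeR 4.0.16 (TMM, filterByExpr, quasi-likelihood F test), and p-values were adjusted by Benjamini-Hochberg over every gene in the fit. Alternatives were DESeq2 1.42.0, RLE size factors, library sizes without mitochondrial genes, no filter, at least 10 counts in each library, 1 fit of all 9 libraries, a block for the replicate number, a limit of 0.05 on the FDR and each cow left out. The tests were checked on simulated counts.

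The members and lists were chosen with earlier results of these data known, so counts over them are descriptions. Given in full were the members among the 8 smallest p-values under 0.05 in a pair, those called by DESeq2, *PPARA*, *PDK4*, *CPT1A*, *ACAT1* and *BDH1*, and other pathway genes called by DESeq2 or with p under 0.01. All 37 symbols were in RefSeq ARS-UCD2.0, where 9 overlapped another gene. That build differs from the one used for alignment, so no positions are given. Promoter and protein sequences were not used here.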

Additional observations from a re-analysis of the deposited data

How the results depend on the processing

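Of the log2 fold changes recomputed for the members named by rule, 82 of 91 for HS against TN, 88 of 91 for HS against PF and 113 of 117 for PF against TN kept their direction and their side of the FDR threshold. DESeq2 called 1 member for HS against TN (*FABP1*), 1 for PF against TN (*ACSL1*) and 1 among the 3 groups (*ACSL1*), where edgeR called 0, and gave 6 and 11 members an unadjusted p under 0.05 in the first 2. In 1 fit of all 9 libraries, 1 member had such a p for HS against PF. Leaving out each cow gave 0 to 3 such members for HS against TN, 0 to 7 for HS against PF and 1 to 10 for PF against TN. The value of *PDK4* for HS against TN turned to 0.015 with DESeq2, 0.0069 with RLE size factors and 0.000805 with no filter, and ran from -0.19 to 0.13 with each cow left out. Leaving out a cow also turned *PDK4* for HS against PF (-0.41 to 0.33) and PF against TN (-0.33 to 0.41), *CPT1A* for HS against TN (-0.11 to 0.39) and HS against PF (-0.23 to 0.065), *ACAT1* for HS against PF (-0.41 to 0.046) and *PPARA* for PF against TN (-0.015 to 0.27). The cause was not tested.

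The deviations of same-numbered cows from their group means had correlations of -0.18 to 0.20. With 3 cows per group these values cannot show whether the replicate number paired the cows, and the labels do not say. With the replicate block, 5 members had an unadjusted p under 0.05 for HS against TN, where 10.3% of all genes did. The value of *PDK4* there was 0.0047, and no member was called in any pair.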
